A study of Mus musculus with 2 samples.

Results

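The transcripts described here are those of the nuclear-encoded subunits of the mitochondrial respiratory chain and ATP synthase, as they were measured in mammary epithelial cells (MECs) of lactating mice. Members were chosen by gene symbol alone, taking every listed gene whose symbol carries the standard prefix of a complex I, III, IV or V subunit. Of the 25810 genes listed, 81 matched, 36 named for complex I, 9 for complex III, 19 for complex IV and 17 for complex V. The prefix also takes in 4 genes that are not structural subunits, namely Cox4nb, a subunit of an endoplasmic reticulum membrane complex that neighbours Cox4i1, Cox7a2l, a factor that joins complexes III and IV, and Atp5s and Atp5sl, which are accessory factors. Ndufa4 was kept with complex I by its symbol, although its protein is now placed in complex IV. Ndufab1, the acyl carrier subunit of complex I, lies outside the symbol rule.

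The study asked how loss of Igfbp7, which encodes a secreted insulin-like growth factor binding protein, alters MECs on lactation day 3. There were 2 libraries of poly(A) RNA, 1 from wild-type (WT) and 1 from Igfbp7-/- mice, and the number of animals behind each is not given in the sources used here. The Igfbp7-/- mice carry a germline deletion of the first coding exon, so every cell type of the gland lacks the gene. Cells came from inguinal glands and had been depleted of cells bearing lineage markers. The labels give CD45, CD35 and Ter119 as those markers and C57BL/6 as the background, whereas the methods of the study give CD31 in place of CD35 and a CD1 background. With 1 library per genotype there was no estimate of the spread between animals and no test between genotypes. A gene was therefore counted as lower or higher when the deposited RPM (its reads scaled to the mapped total of the library), after adding 0.1, differed by at least 1.5 times. The 14026 genes that reached 1 RPM in WT, in Igfbp7-/- or in both were tested in this way. Each ratio carries a 95% Clopper-Pearson interval on the read pairs, which covers counting error only and leaves out the added 0.1. All log2 values given for single genes are log2 ratios of Igfbp7-/- to WT, negative where Igfbp7-/- was lower.

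The respiratory chain passes electrons from NADH through complex I, ubiquinone, complex III, cytochrome c and complex IV to oxygen. Complexes I, III and IV pump protons across the inner mitochondrial membrane, and complex V, the ATP synthase, lets them flow back to make ATP. A few core subunits of complexes I, III and IV and of the ATP synthase membrane part are encoded in mitochondrial DNA, and all other subunits, the members here, are made from nuclear genes in the cytosol and imported. Milk secretion by alveolar MECs has a high demand for ATP, and mitochondria of the gland expand at the onset of lactation.

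Nuclear genes of the chain are known targets of the transcription factors NRF1, the ETS-family factor GABP and YY1. The 300-base promoter windows of RefSeq (GRCm38.p6), which run from 250 bases before to 50 bases after the start of the first transcript listed for a gene, were available for 66 of the 81 members. The palindromic motif of NRF1 (GCGCA, any base, GCGC; both strands) was found in 14 of the 66 (21.2%), against 4.78% of the 27025 genes with a window. The ETS motif (CCGGAAGT, both strands) was found in 5 (7.58%) against 4.0%, and the YY1 motif (AA, any base, ATGG and CGGC without a gap; both strands) in 5 (7.58%) against 1.07%. At least 1 of these 3 motifs lay in 33.3% of member windows and in 9.25% of all windows. The NRF1 and ETS motifs were both found for Atp5h, and the NRF1 and YY1 motifs for Ndufs6. A match describes the letters only and is not evidence that a factor binds there. The following stretches, 5′ to 3′ on the strand of the gene with the NRF1 motif in capitals, are shown because they belong to the members past the threshold with at least 10 RPM whose NRF1 match and flanks lie wholly before the start site.
Ndufa8, chr2:36049350-36049377 (minus strand, motif ending 21 bases before the start): tagagcagtGCGCTTGCGCgtcgctgga
Cox6a1, chr5:115349102-115349129 (minus strand, motif ending 153 bases before the start): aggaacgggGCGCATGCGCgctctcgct

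Transcripts of the respiratory chain were lower in the Igfbp7-/- library. Of the 81 members, 72 reached 1 RPM in at least 1 library, and 29 of these 72 (40.3%) were lower by at least 1.5 times while 0 were higher. Among all 14026 genes, 23.0% were lower and 21.4% were higher by the same rule. At 2 times, 13.9% of members and 13.8% of all genes were lower, while 0 members and 9.64% of all genes were higher. The median log2 ratio was -0.51 over the members (quartiles -0.78 and -0.24) and 0.03 over all genes (quartiles -0.52 and 0.51). The log2 ratio was below 0 in 61 of the 72 members, against 48.4% of all genes. The counting interval lay below 0 in 45 members, spanned 0 in 25 and lay above 0 in 2, Ndufa2 and Atp5sl. Of the 29 members past the threshold, 28 had an interval below 0, the exception being the sparsely read Ndufa3, and 16 had an interval wholly past 1.5 times. Among the 46 members with at least 10 RPM in 1 library, 22 were lower and 0 higher, where 20.4% of all genes at that level were lower and 20.7% higher.

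**Figure D1:**
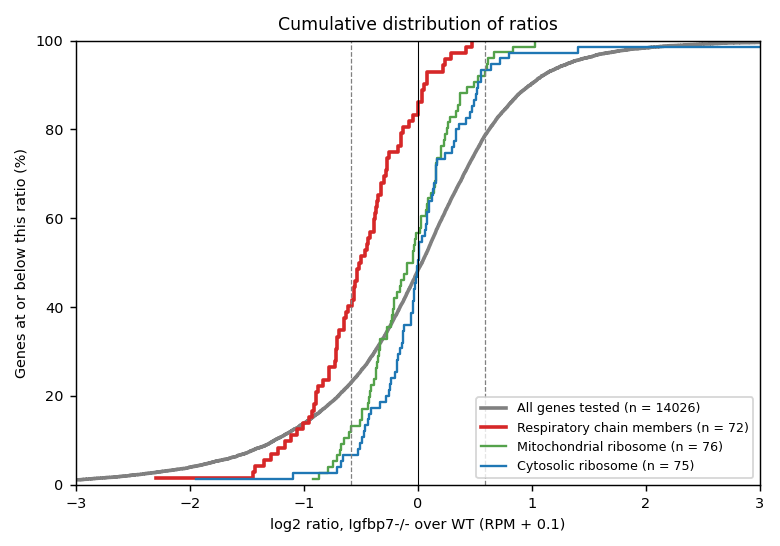
Cumulative distribution of the log2 ratio of Igfbp7-/- to WT (x axis, RPM + 0.1) as the percent of genes at or below each ratio (y axis), for all 14026 genes tested (grey), the 72 respiratory chain members (red), 76 mitochondrial ribosomal protein genes (green) and 75 cytosolic ribosomal protein genes (blue). Dashed lines mark 1.5 times; the red curve crosses 50% near its median of -0.51 and the other 3 cross near 0. The x axis ends at 3 on either side of 0.

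Summed over members, the reads numbered 86668 of 34327854 mapped reads in WT and 59036 of 35016847 in Igfbp7-/-. This was 0.2525% (95% Wilson interval 0.2508 to 0.2542) and 0.1686% (0.1672 to 0.17) of the mapped reads, with these intervals on single reads rather than read pairs. The log2 ratio of the sums was -0.58 (-0.60 to -0.56, on read pairs). ATP synthase gave 50.6% of these reads in WT and 48.4% in Igfbp7-/-, complex I 19.7% and 21.2%, complex IV 16% and 17.8%, and complex III 13.8% and 12.6%. Without Atp5b, Atp5a1 and Atp5g3, the 3 members with most reads, the log2 ratio of the sums was -0.54 (-0.56 to -0.51). These 3 genes therefore did not make up the difference alone.

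The scaling of the libraries bears on these counts. Listed genes held 82.33% of the WT mapped total and 72.27% of that of Igfbp7-/-, so the deposited RPM, which divides by all mapped reads, places the Igfbp7-/- library lower than a scaling to the listed reads would. With the latter, 19 of 73 members (26.0%) were lower and 2 higher (Ndufa2 and Atp5sl), beside 18.6% and 30.6% of all genes. The members' median was -0.32 and that of all genes 0.22. The split of calls over all genes also moved, from 51.8% lower among all calls to 37.8%. Such a change shifts all ratios by nearly the same amount, so it leaves the distance between the members' median and that of all genes in place by construction. The median was below 0 under both in each of the 4 complexes, and 55 of 73 members (75.3%) were below 0 under the listed-read scaling against 38.5% of all genes.

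**Figure D2:**
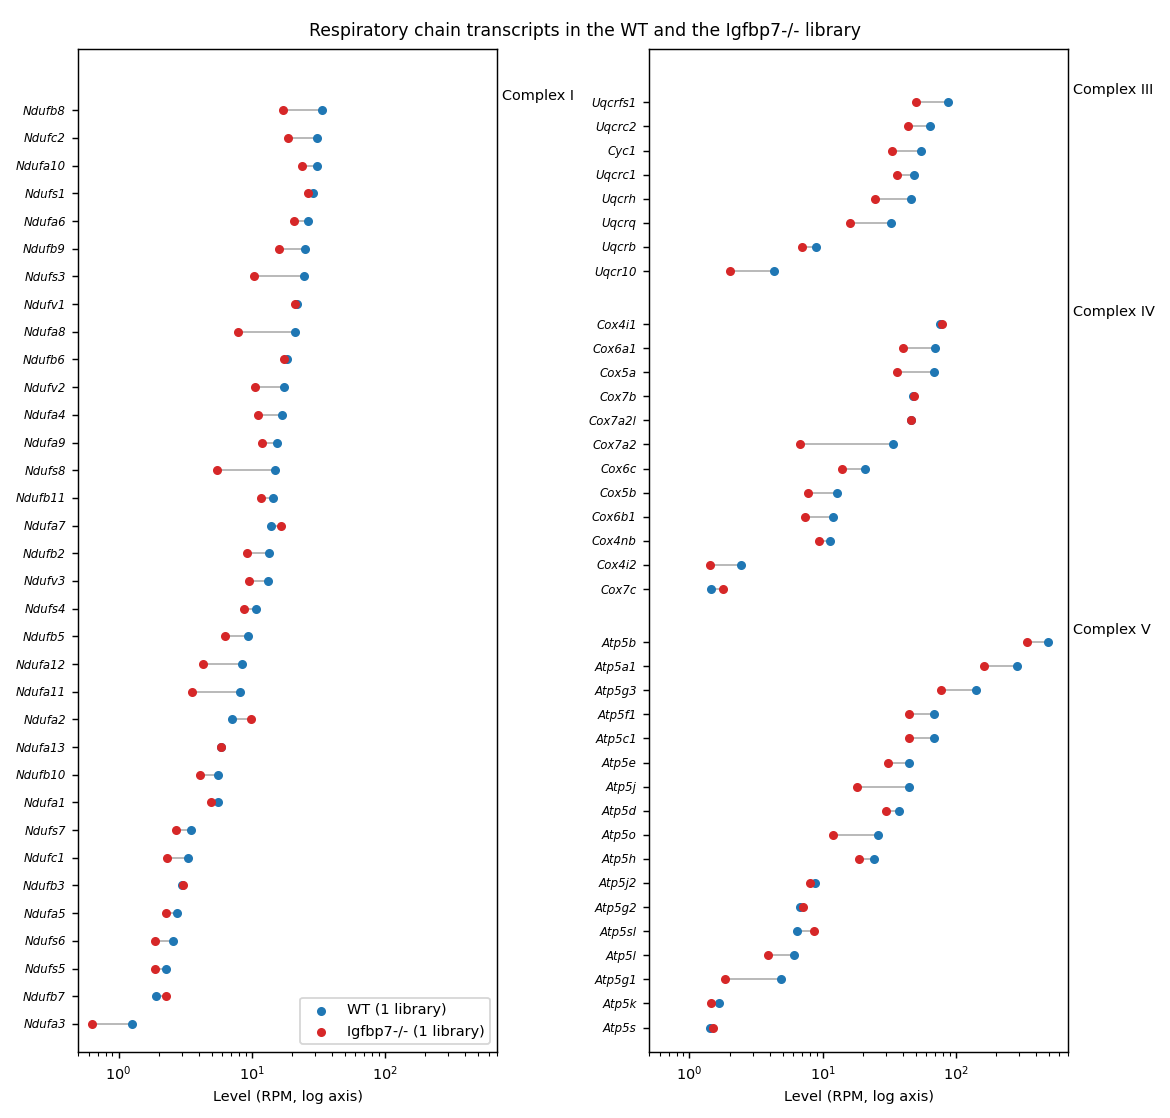
Level of 71 tested members in RPM (x axis, log scale) in the WT (blue) and the Igfbp7-/- library (red), with 1 library per genotype, sorted by WT level within each complex (y axis). Red points lie left of blue ones in 60 of the 71, and levels run from the 0.628 RPM of Ndufa3 in Igfbp7-/- to the 494.3 RPM of Atp5b in WT.

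Complex I, the NADH dehydrogenase, had 35 tested members, of which 10 (28.6%) were lower, a share near the 23.0% of all genes. Its median log2 ratio was nevertheless -0.38, and 31 of the 35 lay below 0. The 7 nuclear core subunits, which carry the flavin and the iron-sulfur clusters, were all below 0 by the deposited RPM with a median of -0.38, and 3 of them passed 1.5 times. Under the listed-read scaling, Ndufs1 and Ndufv1 lay above 0, at 0.06 and 0.14. Ndufs8, which holds a pair of iron-sulfur clusters in the arm that leads electrons to ubiquinone (chromosome 19, 3908870 to 3912717 on the minus strand, NCBIM37), had 15.03 RPM in WT and 5.46 RPM in Igfbp7-/-, with a log2 ratio of -1.45 (-1.82 to -1.12). Ndufs3, a core subunit of the same arm, had 24.56 and 10.42 RPM, a log2 ratio of -1.23 (-1.49 to -0.98). Ndufv2, a flavoprotein-module subunit, had 17.45 and 10.59 RPM, a log2 ratio of -0.71 (-0.99 to -0.45).

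The remaining core subunits of complex I differed less between the libraries. Ndufv1, which binds NADH and the flavin, had 21.7 RPM in WT and 21.05 RPM in Igfbp7-/-, with a log2 ratio of -0.04 (-0.26 to 0.17). Ndufs1, the largest subunit, had 28.9 and 26.42 RPM, a log2 ratio of -0.13 (-0.32 to 0.06). Their intervals do not overlap those of Ndufs8 and Ndufs3, so by counting error the core of complex I was not lower by a common factor. Ndufs7, which holds the last iron-sulfur cluster, had 121 and 95 reads and a log2 ratio of -0.37 (-0.96 to 0.19).

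Among the 28 tested supernumerary subunits of complex I, which surround the core, 7 (25%) were lower, a share near the 23.0% of all genes. Their median was -0.40, beside 0.03 over all genes. Ndufa8, a subunit on the intermembrane space side, had 21.21 RPM in WT and 7.83 RPM in Igfbp7-/-, with a log2 ratio of -1.43 (-1.73 to -1.15). Ndufb8, of the distal membrane arm, had 33.44 and 17.22 RPM, a log2 ratio of -0.95 (-1.16 to -0.75). The remaining lower ones were Ndufa11 (278 and 124 reads, log2 ratio -1.17), Ndufa12 (288 and 152 reads, -0.93), Ndufa3 (43 and 22 reads, -0.89, interval -2.19 to 0.12), Ndufc2 (1068 and 659 reads, -0.72) and Ndufb9 (870 and 563 reads, -0.65).

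At the other end of complex I, Ndufa2, a small soluble-arm subunit with a thioredoxin-like fold, had 245 reads in WT and 348 in Igfbp7-/-, a log2 ratio of 0.47 (0.14 to 0.82), the highest of all tested members. Ndufa7 (13.98 and 16.48 RPM, log2 ratio 0.24), Ndufb7 (0.22) and Ndufb3 (0.04) were the other complex I members above 0, and their intervals spanned 0. Ndufa6, among the complex I members highest in WT RPKM, had 26.25 and 20.88 RPM, and its interval of -0.53 to -0.13 lay below 0 but within 1.5 times. Of the other supernumerary members within 1.5 times, Ndufb5, Ndufb2, Ndufv3, Ndufa10, Ndufa9 and Ndufb11 had log2 ratios from -0.56 to -0.30 with intervals below 0. The intervals of Ndufc1, Ndufb10, Ndufs6, Ndufs4, Ndufa5, Ndufs5, Ndufa1 and Ndufb6 spanned 0, with log2 ratios from -0.50 to -0.07. Ndufa13, which is also known as a cell death regulator, was level at 5.91 RPM in each library. On either side of the threshold (a log2 ratio of -0.585), the nearest members were Ndufa4 just outside it (16.78 and 11.19 RPM, log2 ratio -0.58) and the ATP synthase subunit Atp5c1 just inside it (68.78 and 44.78 RPM, -0.62).

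**Figure D3:**
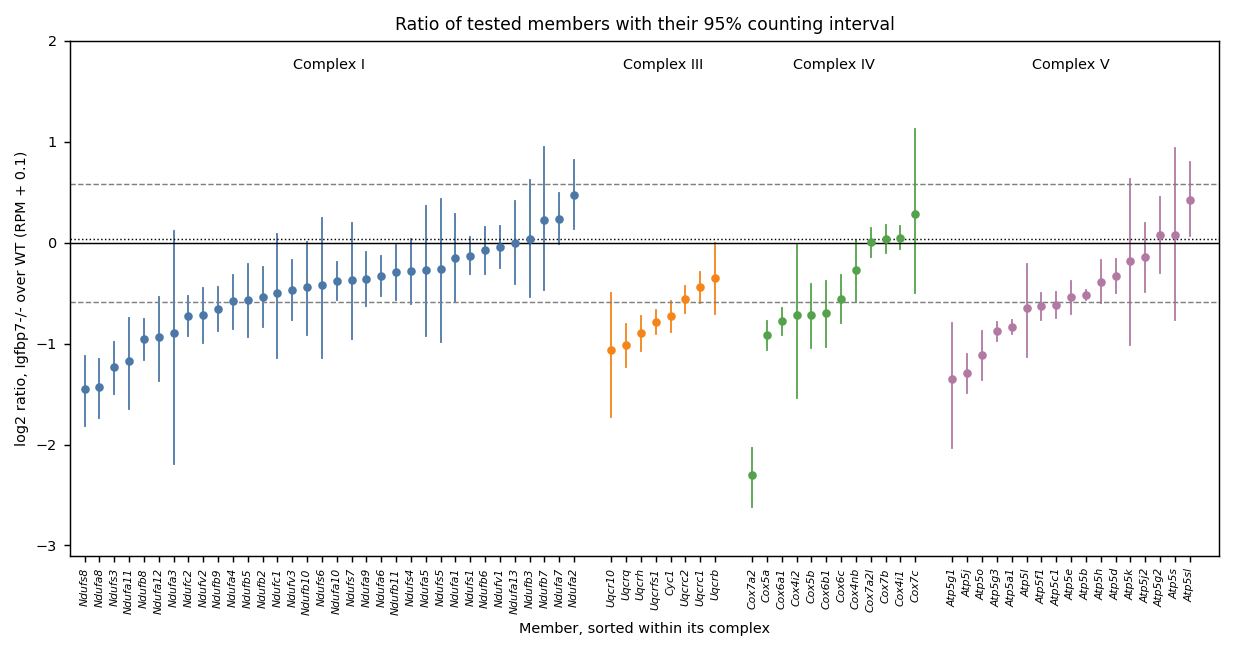
Log2 ratio of Igfbp7-/- to WT (y axis, RPM + 0.1) of 71 tested members (x axis), sorted within complexes I, III, IV and V, with bars for the 95% counting interval of 1 library per genotype. Dashed lines mark 1.5 times and the dotted line the median of all genes (0.03); 29 points lie below the lower dashed line, led by Cox7a2 at -2.30, and 0 above the upper one.

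Complex III, the cytochrome bc1 complex, was lower most uniformly. All 8 tested members were below 0 with intervals below 0, and 5 (62.5%) passed 1.5 times, with a median log2 ratio of -0.76. Uqcrfs1, the Rieske iron-sulfur protein that takes the first electron from ubiquinol, had 87.13 RPM in WT and 50.52 RPM in Igfbp7-/-, with a log2 ratio of -0.79 (-0.91 to -0.67). Cyc1, cytochrome c1, which hands electrons to cytochrome c, had 55.03 and 33.18 RPM, a log2 ratio of -0.73 (-0.88 to -0.58).

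The core proteins Uqcrc1 and Uqcrc2, which resemble processing peptidases and do not carry electrons, were lower by less than 1.5 times, with 48.77 and 35.87 RPM for Uqcrc1 (log2 ratio -0.44, -0.59 to -0.29) and 64.41 and 43.64 RPM for Uqcrc2 (-0.56, -0.70 to -0.43). The small subunits Uqcr10, Uqcrq and Uqcrh were lowest in ratio. Uqcrq had 32.68 RPM in WT and 16.14 RPM in Igfbp7-/-, with a log2 ratio of -1.01 (-1.23 to -0.81). Uqcrh, the hinge protein at the cytochrome c1 site, had 46.41 and 24.9 RPM, a log2 ratio of -0.90 (-1.07 to -0.73). Uqcr10 was read 147 and 70 times, a log2 ratio of -1.06 (-1.72 to -0.50). Uqcrb, a small subunit near the ubiquinone site, was nearest to 0 with 306 and 244 reads and a log2 ratio of -0.35.

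Complex IV, cytochrome c oxidase, was split. Of its 12 tested members 6 were lower, with a median of -0.63, while 4 lay above 0 with intervals that spanned 0. These 4 were Cox4i1, Cox7b, Cox7c and Cox7a2l, the last of which is not a structural subunit. Among them only Cox4i1 matched nowhere else in the genome, and 46% of the Cox7b transcript did match elsewhere. With the reads of annotated copies added, the log2 ratio was -0.06 for Cox7c and -0.06 for Cox7a2l. Cox7a2, a small membrane subunit at the interface of the oxidase dimer (chromosome 9, 79603048 to 79607660 on the minus strand, NCBIM37), had 33.5 RPM in WT and 6.71 RPM in Igfbp7-/-. Its log2 ratio of -2.30 (-2.62 to -2.03), or 4.93-fold lower, was the lowest of all tested members, and its interval overlapped that of no other tested member except Ndufa3. Cox5a, a matrix-side subunit, had 68.95 and 36.47 RPM, a log2 ratio of -0.92 (-1.06 to -0.78). Cox5b, a zinc-binding subunit, had 12.85 and 7.80 RPM, a log2 ratio of -0.71 (-1.04 to -0.41).

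Cox6a1, of the dimer interface, had 69.45 RPM in WT and 40.41 RPM in Igfbp7-/-, with a log2 ratio of -0.78 (-0.92 to -0.65). Cox6b1, on the intermembrane space side, had 11.94 and 7.34 RPM, a log2 ratio of -0.70 (-1.03 to -0.38). Cox6c, a small subunit with 20.65 and 14.02 RPM, was just short of 1.5 times at -0.56 (-0.80 to -0.32). In contrast, Cox4i1, the regulatory subunit that binds ATP, had 75.94 RPM in WT and 78.62 RPM in Igfbp7-/-, with a log2 ratio of 0.05 (-0.06 to 0.16). Cox7b, another small membrane subunit, had 47.54 and 48.75 RPM, a log2 ratio of 0.04 (-0.10 to 0.18). Both were above 0 under either scaling, at 0.24 and 0.22 with the listed-read one. The intervals of Cox4i1 and Cox7b did not overlap those of the 6 members that were lower, except that of the rare isoform Cox4i2 (83 and 50 reads, -0.72, -1.54 to -0.01).

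Complex V, the ATP synthase, gave the most reads and had 8 of 17 members (47.1%) lower, with a median of -0.54. Per length it was not the highest, since its median RPKM in WT was 37.89, beside 40.16 in complex III and 39.13 in complex IV. In the catalytic F1 part all 5 subunits were below 0 with intervals below 0. The catalytic beta subunit gene Atp5b (chromosome 10, 127520329 to 127527447 on the plus strand, NCBIM37) was the most read member in both libraries, with 494.3 RPM in WT and 345.1 RPM in Igfbp7-/-, with a log2 ratio of -0.52 (-0.57 to -0.47). Its partner Atp5a1, the alpha subunit, had 290.3 and 162.8 RPM, a log2 ratio of -0.83 (-0.90 to -0.77). The alpha and beta subunits stand in equal numbers in the enzyme, yet their intervals do not overlap. Atp5c1, the gamma subunit of the rotor, passed 1.5 times, and Atp5e and Atp5d, the epsilon and delta subunits, did not, with log2 ratios of -0.54 (-0.70 to -0.38) and -0.33 (-0.50 to -0.16).

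The peripheral stalk, which holds F1 still against the rotor, had 3 of 4 members lower and a median of -0.87. Atp5j, or coupling factor 6, had 44.4 RPM in WT and 18.13 RPM in Igfbp7-/-, with a log2 ratio of -1.29 (-1.49 to -1.10). Atp5o, the oligomycin sensitivity conferral protein, had 25.98 and 11.97 RPM, a log2 ratio of -1.11 (-1.36 to -0.88). Atp5f1, subunit b, had 68.87 and 44.46 RPM, a log2 ratio of -0.63 (-0.76 to -0.50), and Atp5h, subunit d, had a log2 ratio of -0.39. Of the small membrane subunits, Atp5l was lower (210 and 135 reads, -0.65) and Atp5j2 (-0.15) and Atp5k (-0.18) had intervals that spanned 0.

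The membrane ring of subunit c, whose rotation drives the enzyme, is made from 3 genes that encode the same mature protein. Atp5g3 gave 92.7% of their summed RPKM in WT and 89.5% in Igfbp7-/-. It had 141.7 RPM in WT and 76.99 RPM in Igfbp7-/-, with a log2 ratio of -0.88 (-0.98 to -0.78). Atp5g1 was lower too, with 168 and 65 reads and a log2 ratio of -1.35 (-2.03 to -0.80), whereas Atp5g2 had 232 and 250 reads and a log2 ratio of 0.08 (-0.30 to 0.46). The share of Atp5g2 in the family was 4.64% in WT and 8.71% in Igfbp7-/-. However, 100% of the Atp5g2 transcript and 77.7% of the Atp5g1 transcript also match other places in the genome. Their ratios and shares are uncertain to the extent that reads were split between copies. With the reads of its copy Gm10175 added (478 and 418), the log2 ratio of Atp5g2 was -0.12.

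In the Cox4i, Cox6a, Cox6b, Cox7a and Cox7b families of complex IV, the ubiquitous form gave most of the RPKM in both libraries. The Cox8 family had 5 reads in each library, too few to compare its forms. Cox4i1 made up 97.1% of the Cox4i RPKM in WT and 98.3% in Igfbp7-/-. Cox6a1 and Cox7b were the only forms read in their families, since the heart and muscle form Cox6a2 and the testis form Cox7b2 had 0 reads, which allows up to 0.126% and 0.184% of the family's reads in WT. Cox6b2, a testis form, had 6 reads in WT and 0 in Igfbp7-/-. Cox7a1, the heart and muscle form, had 24 reads in WT and 30 in Igfbp7-/-, so that its share of the Cox7a RPKM went from 3.85% to 19.7% with the lower Cox7a2 and without a detectable difference of its own (log2 ratio of RPM 0.26, -0.90 to 1.52). All listed skeletal muscle markers (9 of 9) were below 1 RPM in both libraries.

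A total of 9 members were below 1 RPM in both libraries. Besides Cox6a2, Cox6b2, Cox7a1 and Cox7b2, these were Cox8a (2 and 1 reads), Cox8b (3 and 4 reads), Cox8c (0 reads), Ndufb4 (26 and 20 reads) and Uqcr11 (0 reads). Cox8a encodes the ubiquitous form of an oxidase subunit and Uqcr11 and Ndufb4 encode subunits found in all tissues, so their listed values cannot be read as expression levels of those subunits. Of the annotated transcript of Uqcr11, 85.4% also matches another place in the NCBIM37 genome, and the part of this in its count of 0 was not tested. Other members matched over more of their transcript ran from Ndufs5 (96% matched, 78 and 66 reads) to Cox7a2l (94.2%, 1568 and 1604 reads), with Atp5h (95.2%, 837 and 652 reads) between. Cox8a matched nowhere else.

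Sequence copies of this kind are common among respiratory chain genes. Stretches of at least 75 bases, the longer read length, with at least 96% identity elsewhere in the genome were found for 22 of the 81 members and not for the other 59. How reads with more than 1 match were counted is not given in the sources used here. For Cox7c, an oxidase subunit, 50 and 63 reads were listed, while its processed copies Gm10012 and Gm3386 held 1039 and 997 reads and 302 and 305 reads, respectively. Ndufs5 had 78 and 66 reads and its copy BC002163 had 292 and 172, and adding the copy moved the log2 ratio of Ndufs5 from -0.26 to -0.66. Ndufs3 and its copy Gm12251 (550 and 294 reads) had log2 ratios of -1.23 and -0.92, and together -1.10.

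The lower transcripts were also present among members free of copies. Of the 52 tested members that matched nowhere else, 22 (42.3%) were lower, with a median of -0.54. Of the 20 tested members with a match, 7 were lower, with a median of -0.41, namely Ndufs3, Ndufa12, Cox5b, Atp5g1, Atp5j, Atp5o and Atp5l, and the values of these 7 are uncertain to the extent that reads were split between copies. With the reads of annotated copies added to their parents, 30 of 72 members were lower.

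**Figure D4:**
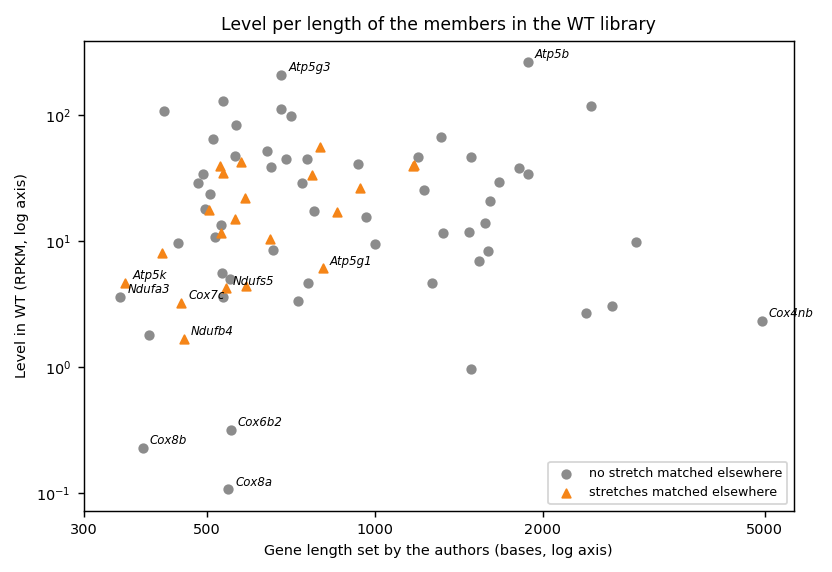
Level of the members in the WT library in RPKM (y axis, log scale) against the gene length set by the authors (x axis, bases, log scale), with members that match another place in the genome as orange triangles and the others as grey circles; the 4 members at 0 reads are not drawn. Atp5b and Atp5g3 lie highest, and Cox8a, Cox8b and Cox6b2 lie below 1 RPKM.

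Subunits that stand in fixed proportion in a complex differed widely in transcript level per length. In WT, the RPKM ran from 3.04 (Ndufa11) to 52.2 (Ndufb8) in complex I, a 17.1-fold range, and from 9.65 (Uqcr10) to 82.6 (Uqcrh) in complex III, an 8.56-fold range. The highest RPKM in complex IV was that of Cox6a1 (130.3), followed by Cox4i1 (111.8), and in complex V those of Atp5b (263.1) and Atp5g3 (208.7). In Igfbp7-/- the order was largely kept, with Cox4i1 (115.8) above Cox6a1 (75.8). Over the 72 tested members, log2 RPKM in WT and in Igfbp7-/- correlated with Pearson's r of 0.957 and Spearman's rho of 0.948. This correlation is across genes, which are not independent replicates, and both libraries share gene lengths and the genome's copies.

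Respiratory chain transcripts are short, and the ratio over all genes varied with gene length, so the members were set beside genes of like length. The median log2 ratio over all tested genes was -0.10 up to 600 bases, -0.19 from 600 to 1000 bases, -0.10 from 1000 to 2000 bases, 0.07 from 2000 to 4000 bases and 0.17 above that. The members' medians in the first 3 classes were -0.41 (28 members, 9 lower), -0.72 (21 members, 13 lower) and -0.41 (18 members, 5 lower). In the same classes 24%, 29.3% and 26.4% of all genes were lower. The members thus lay below genes of like length in each of these classes, by less than their distance from all genes.

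**Figure D5:**
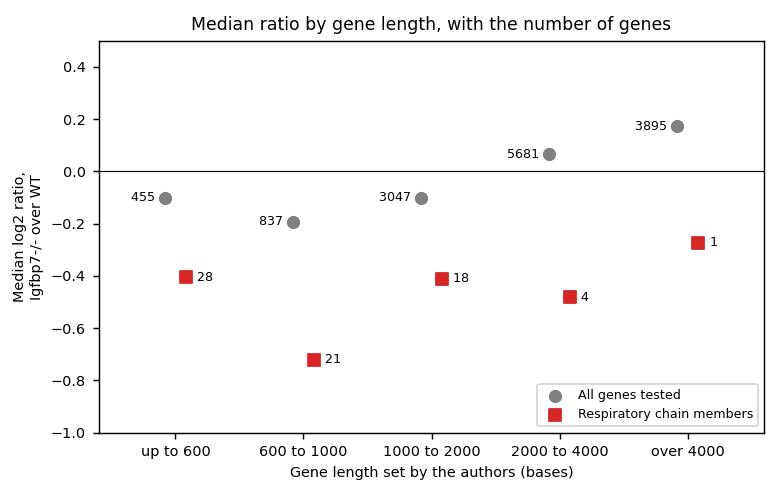
Median log2 ratio of Igfbp7-/- to WT (y axis) by class of gene length set by the authors (x axis, bases), for all tested genes (grey circles) and respiratory chain members (red squares), with the number of genes beside each point. The members lie below all genes in each of the 5 classes, of which the last 2 hold 4 and 1 members.

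The ratio was also read by level. Members with 30 to 100 RPM in the higher library had a median log2 ratio of -0.63 (12 of 21 lower) where all genes at that level had 0.10 (18.9% lower). Members with 1 to 3 RPM had a median of -0.26 (2 of 9 lower), where all genes had -0.04 (28.8% lower). From 3 to 10 RPM the members' median was -0.37 (5 of 17 lower), beside 0.01 over all genes (25.4% lower). From 10 to 30 RPM it was -0.50 (8 of 22 lower), beside 0.05 over all genes (20.2% lower). The 3 members with at least 100 RPM had a median of -0.83 (2 lower), beside 0.02 over all genes (23.5% lower). Across the 72 members, the log2 ratio and the log2 RPM in WT had a Pearson's r of -0.289 and a Spearman's rho of -0.323, as a description, since the WT level enters both measures.

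Other genes of mitochondrial energy metabolism did not all share the pattern. Of complex II, which feeds electrons from succinate, the iron-sulfur subunit gene Sdhb was lower, with 24.53 RPM in WT and 8.65 RPM in Igfbp7-/- (log2 ratio -1.49, -1.78 to -1.23). The flavoprotein Sdha (-0.26) and the anchor Sdhc (-0.08) were within 1.5 times, and Sdhd had 1 read in each library. Slc25a5, an exchanger of ADP and ATP, had 212.4 and 122.0 RPM (-0.80, -0.88 to -0.72), while Slc25a3, the phosphate carrier, had 171.7 and 177.4 RPM (0.05). The 7 tested genes of the list of cytochrome c, carriers and ATP synthase-related genes were Cycs, Slc25a3, Slc25a4, Slc25a5, Atpif1, Usmg5 and 2010107E04Rik. Of these, 1 was lower (Slc25a5) and 1 was higher (Atpif1, an inhibitor of the ATP synthase and not a carrier). Each is 14.3% of the list, beside 23.0% lower and 21.4% higher over all genes.

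Assembly factors, which build the complexes but are not part of them, were near the median of all genes. Of 8 tested for complex I, 0 were lower and 1 was higher, with a median of -0.03. Of 19 tested for complexes III to V, 1 was lower and 2 were higher (5.26% and 10.5%, beside 23.0% and 21.4% of all genes), with a median of 0.03. The lower gene was Tmem70, an ATP synthase assembly factor (12.44 and 7.43 RPM, -0.74), and the higher one with at least 10 RPM was Sco1, a copper chaperone of the oxidase (7.69 and 12.99 RPM, 0.75). The 4 listed genes that carry the prefix without being subunits, Cox4nb, Cox7a2l, Atp5s and Atp5sl, likewise had 0 past 1.5 times and a median of 0.04, and without them 29 of 68 members were lower.

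Of 14 tested regulators of mitochondrial gene expression, 1 was lower and 3 were higher (21.4%, the same share as among all genes), with a median of 0.35 beside 0.03 over all genes. Pprc1, a PGC-1-related coactivator, had 99.45 RPM in WT and 182.2 RPM in Igfbp7-/- (log2 ratio 0.87, 0.79 to 0.96). Gabpb2, a partner of the ETS factor GABP, had 20.42 and 47.98 RPM (1.23, 1.05 to 1.42). Nrf1 and Gabpa had log2 ratios of 0.27 and 0.46, and Ppargc1a was below 1 RPM in both libraries with 30 and 32 reads. Members with an NRF1 motif in the promoter window had 5 of 13 lower and a median of -0.42, and those without it 19 of 46 and -0.53.

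Of 17 tested genes for protein import, 2 were lower, among them Tomm6 of the outer membrane translocase (24.67 and 14.68 RPM, -0.75), and 0 were higher, with a median of 0.19. The mitochondrial ribosome, which translates the mitochondrially encoded subunits, had 10 of 76 genes (13.2%) lower and 6 higher, with a median of -0.07. Mrpl30 (-0.92) and Mrpl9 (1.03) lay furthest out among those with at least 10 RPM. The cytosolic ribosome, another set of short and abundant transcripts, had 5 of 75 lower and 5 higher (6.67% each), with a median of 0.00. Rpl30, with 15.21 and 3.86 RPM, had the lowest ratio there (-1.95). The shares lower and higher of the import genes and of both ribosomes were below the 23.0% and 21.4% of all genes. Under the scaling to listed reads, the medians were 0.11 for the mitochondrial and 0.18 for the cytosolic ribosome beside -0.32 for the respiratory chain. Mitochondrially encoded genes had 0 rows, so the other part of the chain was not analysed here.

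The 2 libraries also differed in markers of cell types, and in RNA of mixed cells fewer cells of a type and less RNA per cell cannot be told apart. The cells had been depleted of cells bearing lineage markers, and whether this depletion was equal in the 2 libraries was not tested. Igfbp7 itself had 5224 reads in WT and 37 in Igfbp7-/-, as the labels call for. All 6 macrophage and leukocyte markers were lower (summed 706.2 and 141.7 RPM), as were 6 of 7 basal markers (3141 and 1052 RPM) and 4 of 5 endothelial markers (1055 and 352.3 RPM). Of 6 fibroblast markers 4 were lower, of 5 adipocyte markers 3 were lower and 1 was higher, and of 5 pericyte markers 3 were lower, while 0 of 4 erythroid markers passed 1.5 times. By the same rule 23.0% of all genes were lower and 21.4% higher. Among luminal markers the keratins Krt8, Krt18 and Krt19 were higher and the milk protein genes Csn2 and Wap lower. Csn2 alone made up 5.31% of mapped reads in the WT library and 2.0% in the other. The part of these differences in the lower respiratory chain transcripts was not tested.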

How the data were processed

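The authors sequenced poly(A) RNA on a SOLiD instrument with paired ends, mapped the reads in the GeneSifter software allowing at most 3 mismatches, and, by the methods, filtered mitochondrial, small nuclear and ribosomal RNA, although ribosomal and small nuclear RNA genes in the deposited counts still equal 2.96% (WT) and 3.15% (Igfbp7-/-) of mapped reads. The submitters' processing notes name Bowtie 0.12.3, SAMtools 0.1.15 and mouse build mm9, whereas the methods name a human build. The annotation and the treatment of reads that map to several places are not given in the sources used here. The authors deposited a raw read count per gene, the RPM, which is that count scaled to the total of mapped reads, and the RPKM, which is the RPM per kilobase of a gene length they set and which is missing for 683 genes. Of 25860 rows, 50 had no symbol (0.0408% and 0.0484% of mapped reads) and were left out.

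From these, log2 ratios of RPM + 0.1 were computed for genes with at least 1 RPM in 1 library and called at 1.5 times. Intervals of ratios used counts divided by 2, because 75.8% and 74.1% of low counts were even, as for read pairs. The Wilson intervals of the members' share of mapped reads used undivided counts and are narrower than they would be on read pairs. For a gene, 3 reads equal 0.0874 RPM in WT and 0.0857 RPM in Igfbp7-/-. Members and lists were chosen with earlier results of these data known. Members were named where they passed 1.5 times with at least 10 RPM, had extreme ratios or levels in their complex, belonged to an isoform family or the core, or were below 1 RPM; other members were named after their values were seen, so that more of them are accounted for. Genes of the further lists were named where they passed 1.5 times with at least 10 RPM, up to 3 in each direction, and the others named there were chosen after their values were seen. Copies were sought with BLAST 2.17.0 in NCBIM37 (mm9). The alternatives were pseudocounts of 1 and 0.01 RPM, other minimums, RPKM, edgeR 4.0.16 TMM and DESeq2 1.42.0 size factors, listed reads, omission of the 20 highest genes, centring, and 2-fold calls. The scripts were tested on simulated data. Python 3.11.15, numpy 2.4.6, scipy 1.17.1, pandas 2.3.3 and R 4.3.3 were used. Some items are counted in the summaries but not reported here by name.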

Additional observations from a re-analysis of the deposited data

How the results depend on the processing

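The number of lower members stayed within 1.5 times of 29, with 0 higher, under pseudocounts of 1 RPM (26) and 0.01 RPM (29), without a minimum (30 of 77), with at least 10 RPM in 1 library (22 of 46) or 1 RPM in both (28 of 71), with RPKM (29), TMM (31), DESeq2 factors (29), without the 20 highest genes (27), centred on all genes (33), for subunits only (29 of 68), and, chosen after seeing the data, with members matched nowhere else (22 of 52) or with copies added (30). It moved with reads scaled to listed genes (19 lower, 2 higher, median -0.3246). There 26.0% of members and 18.6% of all genes were lower. The number also moved with the same scaling without ribosomal and small nuclear RNA, chosen after seeing the data (18 lower, 2 higher, median -0.3137). There the shares lower were 24.7% of members and 18.4% of all genes. With calls at 2 times, 10 members were lower and 0 higher. At that fold 13.9% of members were lower, near the 13.8% of all genes, while 9.64% of all genes were higher. The members' median minus that of all genes ran from -0.45 to -0.63 over all of these settings, of which a change of library scaling alone shifts both medians alike. Of 503 values of the 39 tested members named by the rule, 464 stayed within the counting interval, 39 did not, and 0 of the called ones turned in sign. With 1 library per genotype, no replicate could be left out. No paired analysis was possible because the groups hold 1 library each. At 3 reads per gene the floor is 0.0874 RPM in WT and 0.0857 RPM in Igfbp7-/-.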

Other observations

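Ndufa4l2, a relative of Ndufa4 that the symbol rule does not take in and that is known as a hypoxia-induced gene, had 68 reads in WT and 10 in Igfbp7-/-, a log2 ratio of -2.43 (-4.51 to -1.43). Ndufab1, the acyl carrier subunit of complex I that the rule also leaves out, had 42 and 37 reads, with an interval that spans 0 (-1.20 to 0.76). Atpif1, which inhibits the reverse reaction of the ATP synthase, had 197 and 339 reads, a log2 ratio of 0.74 (0.39 to 1.13), above 0 where 14 of the 17 ATP synthase members were below. Polrmt, the mitochondrial RNA polymerase, had 111 and 238 reads, a log2 ratio of 1.05 (0.60 to 1.56), and Ppargc1b, a coactivator of mitochondrial genes, had 68 and 35 reads, a log2 ratio of -0.92 (-1.91 to -0.11). These genes were picked after their values were seen.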
